A study of Mus musculus with 18 samples.

Results

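Heavy and light polysomes of control 4T1 cells were compared, to see which classes of mRNA carry many ribosomes and which carry few. 4T1 is a mouse mammary carcinoma line of BALB/c origin that serves as a model for triple-negative tumours of the breast. The members are 6 of the 18 libraries of the study, 3 of heavy and 3 of light polysomes, taken by their titles from the control arm that the labels call NSi. All 18 libraries, control and knockdown alike, came from cells induced with doxycycline at 2 µg/ml for 6 days, so no group shows uninduced cells. The control arm and the knockdown arm (shDap5, a hairpin against Dap5, the protein of the gene Eif4g2) each gave whole lysate (input), light polysomes and heavy polysomes, with 3 libraries per group. Fractions of a sucrose gradient were pooled into a light and a heavy sample, and the labels do not say which ribosome numbers each pool holds. Whether the 3 libraries of a group were grown as separate cultures is not stated. Every p-value therefore refers to the spread among these libraries, part of which may be technical.

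A ribosome adds mass to the mRNA it translates, so that sedimentation through sucrose sorts mRNAs by the number of ribosomes they carry. That number rises with the rate of initiation and with the length of the coding region, and it falls when ribosomes elongate or leave quickly. mRNAs with a tract of pyrimidines at their 5′ end (TOP mRNAs, which encode ribosomal proteins and some translation factors) and mRNAs with upstream reading frames are textbook cases in which initiation is held back. Counts are shares of a library's mRNA here, so a class that is higher on heavy polysomes held a larger share of the heavy pool, and the number of molecules in each pool is not known.

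Of coding length, coding GC content and 3′ UTR length, the first followed position on the gradient most closely, and 3 very short coding regions show its lower end. They are the shortest among genes that averaged 100 CPM or more (counts scaled to library size with TMM factors) on control polysomes and were read from GENCODE M21 transcripts of mouse build GRCm38. The start codon and the stop codon are in capitals, and everything between them is all that a ribosome translates.
Rpl41: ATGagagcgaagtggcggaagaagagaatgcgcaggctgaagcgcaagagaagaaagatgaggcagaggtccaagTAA
Ost4: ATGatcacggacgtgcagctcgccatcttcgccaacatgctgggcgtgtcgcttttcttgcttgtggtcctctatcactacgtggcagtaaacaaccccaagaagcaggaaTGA
Tmsb10: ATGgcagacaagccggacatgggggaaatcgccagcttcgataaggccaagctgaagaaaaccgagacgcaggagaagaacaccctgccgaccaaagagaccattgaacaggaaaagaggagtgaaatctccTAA

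Rpl41 (chromosome 10), a ribosomal protein of 25 residues, stood at 929, 801 and 2134 CPM in the light libraries 1, 2 and 3 and at 234, 172 and 290 CPM in the heavy ones. Ost4 (chromosome 5), a subunit of the oligosaccharyltransferase with 37 residues, stood at 162, 132 and 231 CPM on light and 30.4, 28.0 and 58.8 CPM on heavy polysomes. Tmsb10 (chromosome 6), the actin-binding peptide thymosin β10 of 44 residues, stood at 341, 287 and 467 CPM on light and 69.7, 50.9 and 86.9 CPM on heavy polysomes. For all 3 genes the lowest light library lay well above the highest heavy one. The difference (log2 of heavy over light, from edgeR's quasi-likelihood test with Benjamini-Hochberg adjustment over all genes) was -2.47 for Rpl41 (SE 0.38, adjusted p = 3.91e-05), -2.16 for Ost4 (SE 0.37, adjusted p = 0.000119) and -2.40 for Tmsb10 (SE 0.28, adjusted p = 2.71e-06). These are 5.56-fold, 4.48-fold and 5.28-fold higher levels on light polysomes. In the input the same mRNAs stood close to their level on heavy polysomes: Rpl41 at 161, 189 and 178 CPM, and Tmsb10 at 65.0, 74.8 and 69.8 CPM.

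The 6 libraries held 30385863 to 45424291 counts, so that 3 counts, the most that a count of 0 allows, come to 0.0660 to 0.0987 CPM (counting error only). Across 9623 genes, log2 levels correlated at 0.944 to 0.978 among heavy, 0.964 to 0.970 among light, and 0.782 to 0.870 between heavy and light libraries. NSi heavy 3 lay nearer the light libraries (mean r = 0.865) than heavy 1 and 2 did (0.806 and 0.805) and each count below was also taken without it. Eif4g2, the gene targeted in the other arm, stood at 1315, 983 and 769 CPM on control light and 864, 822 and 660 CPM on control heavy polysomes, which overlap. Its log2 difference of -0.39 (SE 0.25, edgeR adjusted p = 0.209) passed with replicate number as a block (adjusted p = 0.0430 over the 6 libraries). All 29 epithelial markers were detected, while 6 of 8 lymphocyte markers, Cd3e and Cd8a among them, were at 0. Of 6 fibroblast markers only 1, Lum, was at 0, and Pdgfra was the highest at a mean of 16.1 CPM. Of 7 endothelial markers 0 were at 0, and their summed level was 3.81 to 6.78 CPM on light and 1.76 to 2.18 CPM on heavy polysomes. The summed level of 9 macrophage markers was 51.3 to 66.9 CPM on light and 94.8 to 112 CPM on heavy polysomes, of which most was Cd68.

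More than 1 in 2 expressed genes differed between heavy and light polysomes. Of 15072 genes tested, 7930 (52.6%) were called at an adjusted p under 0.05 by edgeR, 4065 of them (27.0%) higher on heavy and 3865 (25.6%) higher on light polysomes. These shares are the background for every count of a class below. The median over all genes was a log2 difference of -0.03, with quartiles at -0.88 and 0.62. At least 2-fold differences were called for 1795 genes on heavy and 2649 on light polysomes. Classes are counted over their tested members: 319 of 371 Zfp genes, 202 of 344 solute carriers, 25 of 44 collagen chains and 10 of 16 S100 genes had enough counts, and in most other lists nearly all did. Heavy and light libraries did not overlap for 8358 genes (55.5%). The split depends on scaling: with total counts in place of TMM all genes moved by a median of -0.22, and 2937 genes were called higher on heavy and 4865 on light polysomes; with upper quartile scaling the counts were 2934 and 5029. Every direction given below is relative to the TMM-scaled pool, and with these scalings the middle of the scale moves towards the light side. Without NSi heavy 3 the number of calls was 8089, and no alternative called a gene in the opposite direction.

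Protein length and position on the gradient went together in steps. Of 256 tested genes that encode proteins under 100 residues, 223 (87.1%) were called higher on light and none on heavy polysomes, and their median log2 difference was -1.70. Of 1405 genes for 100 to under 200 residues, 840 (59.8%) were higher on light and 35 (2.49%) on heavy polysomes (median -0.93). At 200 to under 400 residues 1022 of 3674 genes were higher on heavy and 765 on light polysomes (median 0.06). At 400 to under 800 residues 1809 of 4781 were higher on heavy and 654 on light (median 0.29), and at 800 to under 1600 residues 917 of 2138 and 183 (median 0.45). Among the 617 genes for 1600 residues or more 242 (39.2%) were higher on heavy and 29 (4.70%) on light polysomes (median 0.50). The steps were large up to 200 residues and small beyond 800. The 3 heavy minus light differences of same-numbered libraries gave class medians of -1.76, -1.73 and -1.24 for the shortest class and 0.71, 0.45 and 0.14 for the longest, so that number 3 spanned the narrowest range. In pair 3 the 4 classes from 200 residues up had medians of 0.18, 0.21, 0.20 and 0.14, with no rise beyond 400 residues. Counts moved with the setting: the 35 genes of 100 to under 200 residues on the heavy side were 15 without NSi light 3, 21 without NSi heavy 3 and 7 with total-count or upper quartile scaling. The class of 200 to under 400 residues turned to 707 on heavy and 1058 on light polysomes with total-count scaling. The 29 longest genes on the light side were 19 without NSi heavy 1, 58 with the replicate block, and 50 or 57 with total-count or upper quartile scaling.

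**Figure D1:**
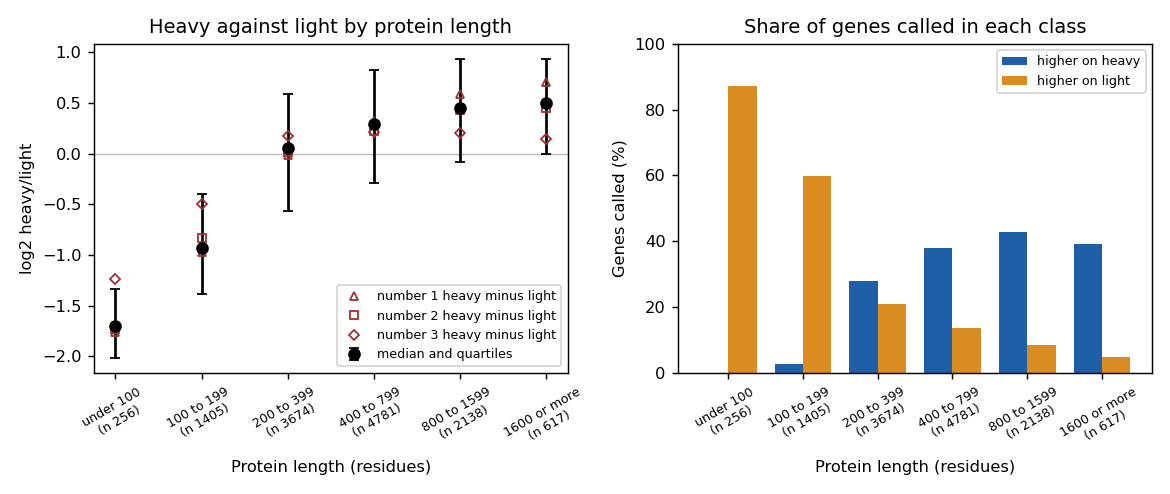
Heavy against light polysomes of control cells by class of protein length (residues). Left, log2 heavy/light per class as the median (black) with quartiles over genes and, in red, the class median of each same-numbered pair of libraries; right, percent of the class called higher on heavy (blue) or light (orange) polysomes. The median runs from -1.70 under 100 residues to 0.50 at 1600 residues or more, and the share higher on light polysomes falls from 87.1% to 4.70%.

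Across the 12871 genes with a known protein length, the log2 difference and the length had a Spearman rho of 0.393. Genes share the 6 libraries and are not independent replicates, so this is a description with no test. The GC content of the coding region had a rho of 0.0945 and the length of the 3′ UTR a rho near 0 (0.000144). Classes of GC content still differed: the 1534 genes under 45% GC had a median of -0.19, with 503 (32.8%) higher on light polysomes, and the 3428 genes of 55 to under 60% GC had a median of 0.28, with 1281 (37.4%) higher on heavy. Genes outside every list described below followed the same steps, from a median of -1.66 for 192 genes under 100 residues to 0.48 for 487 genes of 1600 residues or more. Against input, 46.6% of all genes were called on heavy and 51.4% on light polysomes. The shortest class had a median log2 difference from input of 1.78 on light and 0.03 on heavy polysomes. The longest class lay below input on both, at -1.02 on light and -0.52 on heavy polysomes.

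The shares of counts per library show the same contrast without any fit. Proteins under 100 residues took 4.73%, 4.25% and 5.23% of the counts of the light libraries and 1.03%, 0.965% and 1.75% of the heavy ones. Heavy 3 had the highest share of its group and still lay below every light library. Proteins of 800 residues or more took 13.8%, 17.6% and 14.8% on light and 22.8%, 24.8% and 18.4% on heavy polysomes, and 29.2% ± 0.894 (SD, n = 3) in the input. Each of 6 such shares was tested by a two-sided exact permutation test, and each separated 3 from 3 libraries at p = 0.1 (adjusted p = 0.1), the smallest this design allows.

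**Figure D2:**
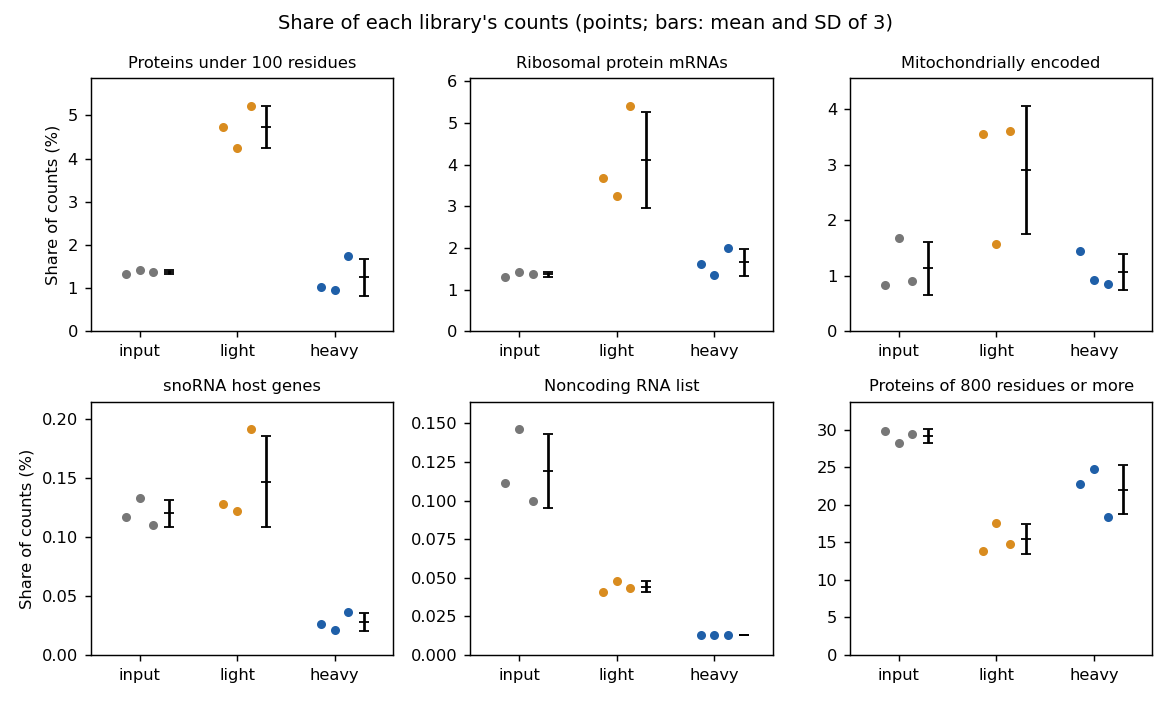
Percent of a control library's counts (y axes, each from 0) taken by 6 classes of genes in input (grey), light (orange) and heavy (blue) polysomes; points are libraries and bars the mean and SD of 3. Proteins under 100 residues hold 4.25% to 5.23% of light and 0.965% to 1.75% of heavy libraries, and the heavy and light points do not overlap in any panel.

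The largest single differences are given next. Of the 12 largest differences towards heavy polysomes (called, without overlap of the fractions, and averaging 5 CPM or more), all were of genes for proteins of 463 (Mfge8) to 2225 (Cad) residues. They were Pfkl, Mvp, Anxa11, Lgals3bp, Cad, Tbl3, Mfge8, Psap, Gsn, Dctn1, Fbln2 and Col18a1. Mvp, the major protein of vault particles with 870 residues, stood at 33.5, 28.3 and 34.0 CPM on light and 248, 191 and 163 CPM on heavy polysomes (log2 2.65, SE 0.22, edgeR adjusted p = 1.09e-07). Anxa11, a calcium-dependent phospholipid-binding annexin of 503 residues, was higher on heavy polysomes by 2.55 (SE 0.17, edgeR adjusted p = 6.22e-08). Psap, the precursor of the lysosomal saposins, was higher by 2.43 and Gsn, the actin-severing protein gelsolin, by 2.36. Cad, which catalyses the first steps of pyrimidine synthesis in 1 chain of 2225 residues, was higher by 2.46. The 12 largest differences towards light polysomes included the actin-binding peptide gene Tmsb4x (log2 -2.60), the respiratory chain subunit Uqcr10 (-2.35), the ATP synthase subunit Usmg5 (-2.48), Anapc13 of the anaphase-promoting complex (-2.37) and the chemokine Ccl5 (-2.45), besides Rpl41 and Tmsb10. Their products are short, and Snhg3 (-2.58) among them is a noncoding host of a small nucleolar RNA.

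The longest proteins among genes averaging 100 CPM or more were those of Dst, Macf1 and Ubr4, by the principal transcript taken for each gene; Ahnak, whose principal transcript is a short one although its longest product is a giant protein, is placed by the short one. Dst, a cytoskeletal linker of 7393 residues, stood at 71.2, 114 and 59.4 CPM on light and 152, 232 and 110 CPM on heavy polysomes, and heavy 3 lay below light 2. Its log2 difference of 1.01 was not called (SE 0.45, edgeR adjusted p = 0.0664), but it was with the replicate block (log2 0.93, adjusted p = 2.08e-05 over the 6 libraries), without NSi heavy 3 (adjusted p = 0.0415) and without NSi light 2 (adjusted p = 0.0377). Macf1, a related linker of 7355 residues, was higher on heavy polysomes by 0.93 (SE 0.32, edgeR adjusted p = 0.0212) and lost the call when NSi light 1 or 3 or NSi heavy 1 or 2 was left out (adjusted p = 0.0571 to 0.0883). Ubr4, a ubiquitin ligase of the N-degron pathway with 5180 residues, stood at 92.2, 135 and 90.4 CPM on light and 426, 424 and 276 CPM on heavy polysomes (log2 1.82, SE 0.27, adjusted p = 2.60e-05). All 3 giants stood well above their light level in the input, with Dst at 489, 338 and 522 CPM.

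Exceptions to the length pattern are named here after their values were seen, as are Rpl15, Qars, Psmd9, Rpa3, Col1a1 and Nlrc5 below. Tet2, a DNA demethylase of 1912 residues, stood at 7.36, 11.4 and 8.27 CPM on light and 2.40, 2.89 and 2.65 CPM on heavy polysomes (log2 -1.77, SE 0.25, edgeR adjusted p = 2.00e-05). Kmt2e, a chromatin regulator of 1868 residues, was also higher on light polysomes (-0.56, adjusted p = 0.00275).

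mRNAs of the cytosolic ribosome were on the light side as a class. Of 82 ribosomal protein genes, all of them tested, 72 were called higher on light and none on heavy polysomes, with a median log2 difference of -1.43 against -0.03 over all genes. The remaining 10 missed the test, among them Rpl15 (204 residues) at 56.5, 42.0 and 45.7 CPM on light and 52.3, 45.3 and 54.5 CPM on heavy polysomes. Rps25 of the small subunit stood at 92.0, 75.7 and 132 CPM on light and 23.3, 18 and 24.0 CPM on heavy polysomes (log2 -2.20, SE 0.21, edgeR adjusted p = 3.99e-07), and Rps12 was higher on light polysomes by 4.92-fold. The 60 ribosomal proteins under 200 residues had a median of -1.64 and the 22 longer ones of -0.86, with 16 of these 22 higher on light polysomes. All genes of 200 to under 400 residues had a median of 0.06. Ribosomal protein mRNAs together took 4.12% ± 1.15 of counts on light, 1.66% ± 0.329 on heavy polysomes and 1.36% ± 0.0514 in the input (SD, n = 3 each). Many of these genes have near-identical copies in the genome, and reads shared with copies may have been dropped or split, so that their levels are uncertain.

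The start of such mRNAs is shown by 30 bases around the RefSeq transcription start (10 before it and 20 after, build GRCm38.p6), with the pyrimidine motif CTTTC in capitals. Rpl38 is a ribosomal protein gene, Snhg12 hosts small nucleolar RNAs, and Pfkl, the gene with the largest named difference towards heavy polysomes, has no such run.
Rpl38, chr11:114668570-114668599, plus strand: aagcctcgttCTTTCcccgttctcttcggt
Snhg12, chr4:132308668-132308697, plus strand: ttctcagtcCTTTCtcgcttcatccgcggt
Pfkl, chr10:78009788-78009817, minus strand: tactgggggcggagccggggcggggcggga
Within 20 bases on either side of the start, CTTTC was found on the transcribed strand of 19 of 61 ribosomal protein genes with a start window (31.1%), 3 of 14 small nucleolar RNA host genes (21.4%), 2 of 12 other TOP mRNAs (16.7%), 2 of 15 tRNA synthetases (13.3%), none of 31 proteasome genes, 1 of 18 glycolytic genes (5.56%) and 676 of 11161 of all genes tested (6.06%). Its reverse complement GAAAG was found in 4 of the 61 (6.56%) and in 553 of all genes (4.95%). Genes for proteins under 200 residues outside the ribosomal list held CTTTC in 70 of 1218 windows (5.75%). Ribosomal protein genes with the motif had a median log2 difference of -0.94 and those without of -1.43, so the match in this window did not go with a lower place on the gradient within the class.

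The other TOP mRNAs, elongation factors and their partners, were divided. Of 18 tested, 6 were higher on light and 2 on heavy polysomes (median -0.46). With the replicate block the 6 became 10, and without NSi light 3 or NSi heavy 2 they became 2; with upper quartile or total-count scaling they became 12 or 13. Pabpc1, the poly(A)-binding protein of 636 residues, stood at 3739, 2970 and 5227 CPM on light and 1802, 1458 and 1258 CPM on heavy polysomes (log2 -1.40, SE 0.21, edgeR adjusted p = 3.97e-05). Its level on heavy polysomes lay below all 3 inputs (2194, 2202 and 2287 CPM). Naca, a chaperone subunit at the ribosome exit, was 2.26-fold higher on light polysomes, while Impdh2, an enzyme of guanine nucleotide synthesis that is on the list as a TOP mRNA, was higher on heavy polysomes by 0.98.

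In the rest of the translation machinery, initiation factors lay on both sides by size, and tRNA synthetases were nearly all on the heavy side. Of 38 initiation factors 19 were higher on heavy and 8 on light polysomes (13 on light with the replicate block, and 13 with total-count scaling). The 7 under 200 residues had a median of -0.77 and 6 of them were higher on light polysomes, while 19 of the 31 longer ones were higher on heavy (median 0.70). Eif1, the small factor that guides start codon choice, stood at 725, 502 and 720 CPM on light and 186, 128 and 214 CPM on heavy polysomes (log2 -1.88, SE 0.26, edgeR adjusted p = 1.47e-05). Eif3c, a core subunit of eIF3 with 911 residues, went the other way, from 222, 212 and 194 CPM on light to 950, 785 and 461 CPM on heavy polysomes (log2 1.81, adjusted p = 8.86e-06). Of 23 tRNA synthetases, which charge tRNAs with amino acids, 21 were higher on heavy and none on light polysomes, with a median of 1.53, the highest of all lists. Vars, the valine enzyme, stood at 377, 501 and 481 CPM on light and 1839, 2062 and 1576 CPM on heavy polysomes (4.03-fold, edgeR adjusted p = 6.35e-07). Qars, the glutamine enzyme with 775 residues, was an exception at 277, 332 and 515 CPM on light and 367, 384 and 421 CPM on heavy polysomes (log2 0.06, adjusted p = 0.830).

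Subunits of 1 complex lay far apart on the gradient where they differ in size. Of 79 nuclear-encoded genes of the respiratory chain and ATP synthase 41 were higher on light and 19 on heavy polysomes. All 20 with under 100 residues were higher on light polysomes (median -1.82), and 8 of the 9 with 400 to under 800 residues were higher on heavy (median 1.21). In complex III, Uqcr10 with 64 residues stood at 284, 218 and 441 CPM on light and 59.5, 43.9 and 81.2 CPM on heavy polysomes, and Uqcrc1 with 480 residues at 180, 185 and 200 CPM on light and 552, 562 and 600 CPM on heavy. The libraries of the fractions did not overlap for either gene, in opposite directions (log2 -2.35 and 1.60, edgeR adjusted p = 3.82e-05 and 1.31e-07). Atp5b, the catalytic subunit of the ATP synthase, was higher on heavy polysomes by 1.84. RNA polymerase subunits mostly split the same way: 9 of 10 with under 200 residues were higher on light polysomes (median -1.39). Of 18 longer ones 9 were higher on heavy and 2 on light polysomes (median 0.49). Polr2m, 1 of these 2, had the lowest value of the longer ones (log2 -1.83, edgeR adjusted p = 5.57e-06). Polr2b, the second largest subunit of RNA polymerase II, had a log2 difference of 1.73, and the small shared subunit Polr2f one of -1.61. Sm and Lsm proteins, the rings around spliceosomal and other small RNAs, had 14 of 16 members under 200 residues higher on light polysomes, while Snrnp70 (448 residues) of the U1 particle was higher on heavy by 1.71.

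Mitochondrial ribosomal proteins stood between these patterns. Of 76, 19 were higher on heavy and 23 on light polysomes, with a median of 0.13 that turned to -0.10 with total-count and -0.11 with upper quartile scaling. The light count was 12 without NSi heavy 2, 14 without NSi light 1 and 15 without NSi heavy 1. In the class of 200 to under 400 residues 16 of 33 mitochondrial ribosomal proteins were higher on heavy and 2 on light polysomes (median 0.41), where 14 of 20 cytosolic ones were higher on light and none on heavy (median -0.86). Mrps27 was higher on heavy polysomes by 1.44 and Mrpl42 on light (log2 -2.03).

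Proteasome subunits, the parts of the protease that degrades ubiquitin-tagged proteins, were on the heavy side throughout. Of 37, 33 were higher on heavy and none on light polysomes, with a median of 1.16 and a lowest value of 0.22 (Psmd9, not called). Psmb5, a catalytic subunit of 264 residues, stood at 19.4, 21.5 and 17.7 CPM on light and 72.4, 57.2 and 64.2 CPM on heavy polysomes (log2 1.72, SE 0.17, edgeR adjusted p = 5.03e-07). Psmd2, a 908-residue subunit of the regulatory particle, was 3.84-fold higher on heavy polysomes. The 26 subunits of 200 to under 400 residues had a median of 1.02, and 22 of them (84.6%) were called higher on heavy polysomes, against 27.8% of all genes of that length. Psmb5 was also higher on heavy polysomes than in the input, by 2.16 (edgeR adjusted p = 8.72e-08).

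**Figure D3:**
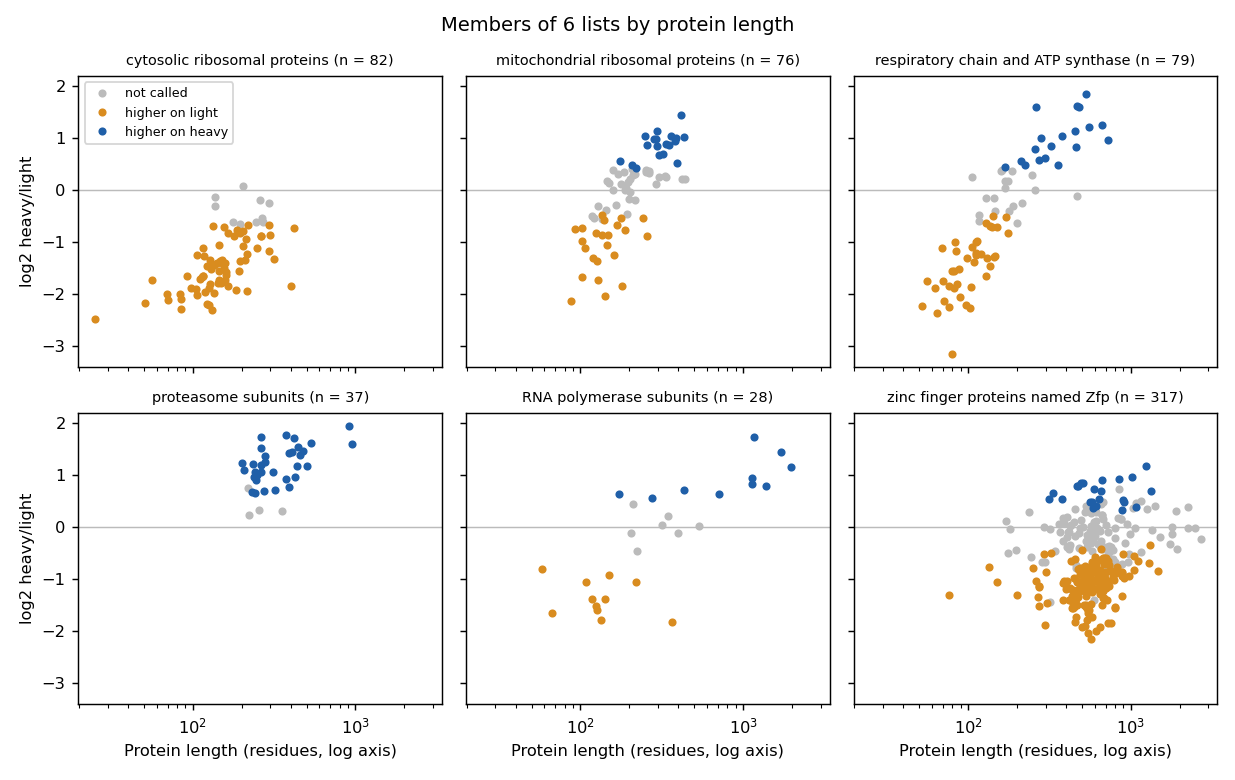
Members of 6 lists by protein length (residues, log axis) and log2 heavy/light in control cells; orange, called higher on light; blue, called higher on heavy; grey, not called. Respiratory chain and most RNA polymerase subunits run from light to heavy with length. Proteasome subunits of 200 to under 400 residues lie at a median of 1.02 and ribosomal proteins of that length at -0.86. Zfp proteins of 400 to under 800 residues lie at -0.85.

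Ubiquitin itself and its relatives were small and on the light side: 12 of 15 were higher on light polysomes (median -1.20), among them Nedd8 (log2 -1.65). The exception was Ubb, which encodes ubiquitin as a chain of repeats in 1 reading frame of 305 residues. It stood at 138, 146 and 130 CPM on light and 312, 240 and 276 CPM on heavy polysomes (2-fold, with an SE of 0.14 on the log2 scale, edgeR adjusted p = 1.28e-05). Of 17 large ubiquitin ligases 14 were higher on heavy polysomes (median 0.84), but 8 or 9 were without NSi light 1, NSi light 3, NSi heavy 1 or NSi heavy 2, or with total-count or upper quartile scaling. Wwp1, a ligase of the Nedd4 family with 918 residues, was the 1 member higher on light polysomes (log2 -1.03, adjusted p = 9.54e-05).

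Folding factors mostly followed size as well. Of 27 chaperonin and heat shock genes 14 were higher on heavy and 6 on light polysomes, and all 6 members under 200 residues were those on light. Cct3, a chaperonin subunit, stood at 297, 209 and 209 CPM on light and 1341, 756 and 671 CPM on heavy polysomes (log2 1.95), while the small prefoldin subunit Pfdn4 had a log2 difference of -2.06. Of 27 genes of endoplasmic reticulum folding and translocation 16 were higher on heavy and 6 on light polysomes. All 6 on light were among the 8 members under 200 residues. Ssr2, of 183 residues and named after its value was seen, was higher on heavy polysomes by 1.07 (edgeR adjusted p = 3.32e-05). The disulfide isomerase Pdia6 led the list, with 102, 115 and 90.0 CPM on light and 610, 442 and 379 CPM on heavy (log2 2.22, edgeR adjusted p = 9.62e-08). Calr, the calcium-binding chaperone calreticulin, was higher on heavy polysomes by 1.71, and the small signal peptidase subunit Spcs1 on light (-1.76).

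Zinc finger genes named Zfp, mostly DNA-binding transcription factors, were on the light side despite their length. Of 319 tested, 173 were higher on light and 23 on heavy polysomes, with a median of -0.77. Among the 224 of 400 to under 800 residues 135 (60.3%) were higher on light and 12 on heavy polysomes, with a median of -0.85; the 4557 other genes of that length had 519 (11.4%) and 1797, with a median of 0.34. The median of the 224 was -0.67, -0.72 and -0.60 in the 3 same-numbered pairs, so that each pair lay on the same side. With total-count or upper quartile scaling 11 or 10 Zfp genes were higher on heavy polysomes, in place of 23, and with the 6 polysome libraries alone 13 did. Zfp560, of 754 residues, stood at 20, 17.4 and 21.1 CPM on light, 5.11, 5.34 and 5.83 CPM on heavy polysomes, and 12, 14.3 and 13.3 CPM in the input (log2 heavy over light -1.84, SE 0.20, edgeR adjusted p = 1.38e-06). Zfp869, which was more abundant, was at 78.0, 65.1 and 67.7 CPM on light and 32.0, 28.5 and 28.0 CPM on heavy polysomes. The summed level of all tested Zfp genes was 7164 to 7716 CPM on light, 6196 to 6464 CPM on heavy polysomes and 7428 to 7751 CPM in the input. Zfp genes are related in sequence, and reads shared between them may have been dropped or split.

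Among other nuclear proteins, nucleoporins and hnRNP proteins were mostly on the heavy side, unlike the zinc fingers. Of 26 nucleoporins, which build the nuclear pore, 19 were higher on heavy and none on light polysomes (median 0.97), for example Nup133 by 1.71. Of 21 hnRNP proteins, which package pre-mRNA, 17 were higher on heavy polysomes (11 without NSi heavy 1), with Ptbp1, a splicing repressor, higher by 1.32. SR splicing factors gave no stable split: 5 of 12 were higher on heavy and 1 on light polysomes, with a median of 0.24 that turned to -0.0085 with upper quartile scaling, and 2 were higher on heavy without NSi light 2 or NSi heavy 1. The 1 on light was Srsf5 (-0.60, edgeR adjusted p = 0.00518). Large chromatin regulators had 13 of 38 higher on heavy and 2 on light polysomes (6 on light with the replicate block, and a median of 0.17 that turned to -0.07 with either of these scalings), led by the remodelling ATPase Smarca4 with 155, 176 and 163 CPM on light and 740, 661 and 384 CPM on heavy polysomes (log2 1.85, adjusted p = 1.83e-06). Replication-dependent histones have mRNAs that mostly lack a poly(A) tail and are poorly captured by poly(A) selection. Of 38 tested (of 69 listed) 8 were higher on light and none on heavy polysomes (median -1.21). That is 21.1% on light, below the 25.6% of all genes, and the same-numbered pairs had medians of -0.56, -0.35 and -0.37. With the replicate block 16 of the 21 tested were higher on light polysomes, beside 4696 of 13802 of all genes. Hist1h2bc stood at 12.3, 8.73 and 13.2 CPM on light and 2.82, 2.12 and 3.05 CPM on heavy polysomes.

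RNAs without a protein product were mostly at the light end. All 17 host genes of small nucleolar RNAs were higher on light polysomes, with a median of -2.23 and a range of -2.61 to -1.53. Snhg12, whose start is shown above, stood at 62.2, 59.0 and 107 CPM on light, 14.9, 10.3 and 19.9 CPM on heavy polysomes and 48.3, 51.4 and 50.4 CPM in the input. Against input its log2 difference was 0.60 on light polysomes, which was not called (edgeR adjusted p = 0.120), and -1.73 on heavy polysomes (adjusted p = 0.000341). Of 13 other noncoding RNAs 9 were higher on light and none on heavy polysomes, and 4 were not called (median -1.80, range -2.31 to 0.78). Malat1, a nuclear RNA, differed from the host genes in its input level: 323, 307 and 290 CPM in the input, 59.7, 54.3 and 53.0 CPM on light and 17.8, 8.53 and 7.39 CPM on heavy polysomes. Pvt1, a noncoding neighbour of Myc, had a log2 difference of -2.03 (edgeR adjusted p = 7.58e-06).

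Of the 13 mRNAs made inside mitochondria 7 were tested, and of these 5 were higher on light and none on heavy polysomes (median -1.33). They are translated by mitochondrial ribosomes, so their place on the gradient does not count cytosolic ribosomes. ND5 stood at 2547, 3616 and 2604 CPM on light and 1079, 995 and 749 CPM on heavy polysomes (log2 -1.63, SE 0.36, edgeR adjusted p = 0.00105). The other calls were weak: ND2 (edgeR adjusted p = 0.0353), ND4 (adjusted p = 0.0430) and CYTB (adjusted p = 0.0262) each lost the call when NSi light 1 or 3 or NSi heavy 2 or 3 was left out. ND6 lost it without NSi heavy 3 (adjusted p = 0.0579), which left 1 call of the 5. Light 2 held 1.57% of its counts in mitochondrial mRNAs, against 3.54% and 3.61% in light 1 and 3. With the replicate block all 7 were called.

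mRNAs known for control by upstream frames or other elements did not behave as 1 group. Of 22 genes of the integrated stress response and of known upstream frames, 7 were higher on light and 5 on heavy polysomes, with a median of 0.01 that turned to -0.22 with upper quartile scaling. Atf4, the transcription factor of that response whose upstream frames hold back its own frame, stood at 690, 599 and 911 CPM on light and 304, 241 and 320 CPM on heavy polysomes (log2 -1.35, SE 0.21, edgeR adjusted p = 5.57e-05) although it has 349 residues. Its target Phgdh, the first enzyme of serine synthesis, was higher on heavy polysomes by 1.72, and the small stress protein gene Nupr1 on light (-2.10). Of 8 polyamine genes 5 were higher on light and none on heavy polysomes. Odc1, the rate-limiting enzyme of polyamine synthesis with 461 residues, stood at 579, 714 and 809 CPM on light and 275, 356 and 415 CPM on heavy polysomes (log2 -1.01, adjusted p = 0.000284). Oaz1, its antizyme made by frameshifting, had a log2 difference of -1.38.

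Iron genes divided by protein: the ferritin subunit Fth1 (182 residues), whose mRNA is held back by iron regulatory proteins when iron is low, stood at 8055, 4542 and 15566 CPM on light and 2850, 2199 and 3472 CPM on heavy polysomes (log2 -1.72, SE 0.39, edgeR adjusted p = 0.00131). Aco1, which is itself iron regulatory protein 1, was higher on heavy polysomes by 1.65 and Alas1, the first enzyme of haem synthesis, by 1.72. Among 9 iron genes 3 were called in each direction, with 1 on light without NSi light 3. Of 17 selenoprotein mRNAs, in which a stop codon is read as selenocysteine, 9 were higher on light and 4 on heavy polysomes (median -0.72). Gpx1, a glutathione peroxidase of 201 residues, stood at 1620, 1515 and 2058 CPM on light and 348, 408 and 671 CPM on heavy polysomes (log2 -1.86, adjusted p = 2.05e-05).

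Enzymes of glycolysis were on the heavy side almost throughout. Of 18, 17 were higher on heavy and none on light polysomes (median 1.34). Pfkl, the liver form of phosphofructokinase with 780 residues, stood at 239, 254 and 201 CPM on light, 1790, 1541 and 1216 CPM on heavy polysomes and 403, 407 and 426 CPM in the input. The 3 heavy libraries were each over 2-fold above every input and light library, and the log2 difference of 2.71 (SE 0.28, edgeR adjusted p = 7.87e-07; 6.55-fold) was the largest of the named genes. The platelet form Pfkp was higher on heavy polysomes by 2.31 and the muscle form Pfkm by 1.32. Pkm, pyruvate kinase, stood at 1390, 1513 and 1312 CPM on light and 6974, 6235 and 4472 CPM on heavy polysomes (4.19-fold). In cholesterol synthesis 11 of 24 genes were higher on heavy and 1 (Ggps1, log2 -1.05) on light polysomes; with the replicate block these were 18 and 3, without NSi light 2 they were 5 and 1, and without NSi heavy 3 they were 8 and 3.

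**Figure D4:**
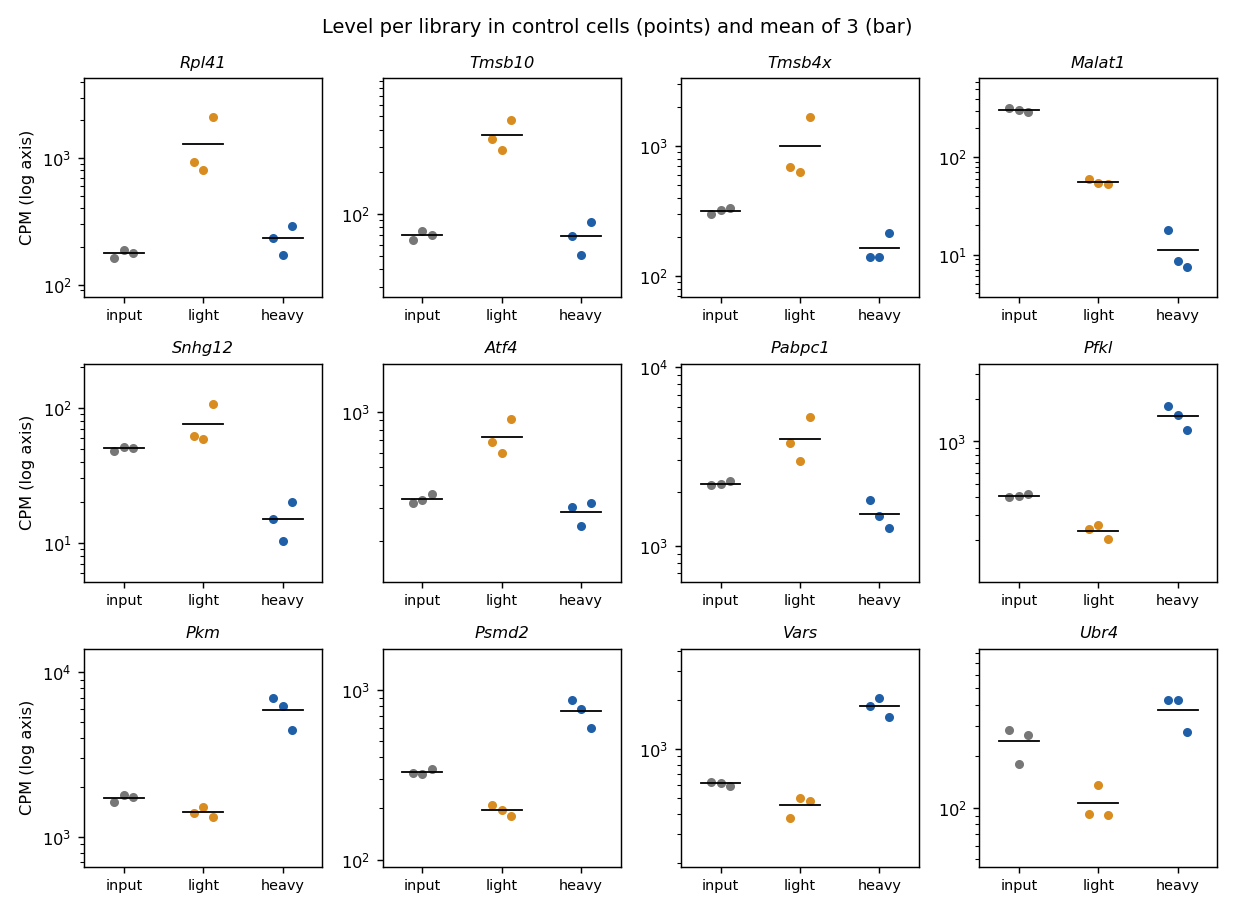
Level of 12 genes (CPM, log axis) in the 3 input (grey), light (orange) and heavy (blue) libraries of control cells; points are libraries and lines their means. In the first 7 genes every light library lies above every heavy one, and in Pfkl, Pkm, Psmd2, Vars and Ubr4 every heavy library lies above every light one.

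Cell cycle genes were mostly on the heavy side. Of 36 S phase and replication genes 24 were higher on heavy and 1, Rpa3, on light polysomes (median 1.14). Mcm5, a subunit of the replicative helicase, stood at 140, 134 and 158 CPM on light and 717, 646 and 550 CPM on heavy polysomes (log2 2.15, SE 0.24, edgeR adjusted p = 2.01e-06), and Lig1, the replicative DNA ligase, was higher by 2.21. Of 40 G2 and mitosis genes 24 were higher on heavy and 4 on light polysomes (median 0.83), and all 4 on light were among the 5 members under 200 residues. Cdc20, an activator of the anaphase-promoting complex, stood at 76.2, 96.9 and 75.6 CPM on light and 333, 354 and 361 CPM on heavy polysomes (log2 2.08). Cenpa, the centromeric histone of 134 residues, had a log2 difference of -1.54 (adjusted p = 0.000285; named after its value was seen).

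Matrix and adhesion genes, whose products are large and enter the secretory path, were called on heavy polysomes more often than on light. The share higher on heavy was 48% of collagen chains, 59.1% of large matrix proteins and 60% of integrins. It was 42.9% of all genes for 800 to under 1600 residues and 39.2% of those for 1600 or more. Of 25 collagen chains 12 were higher on heavy and 1 on light polysomes (median 0.80); that 1, Col1a1, was at or under 3.87 CPM in every library, and none was on light without NSi light 2 or NSi heavy 2. Without NSi light 1, with the replicate block over the 6 libraries, with DESeq2 or with RLE, total-count or upper quartile scaling, 2 were. Col18a1, a basement membrane collagen of 1527 residues, stood at 71.0, 98.3 and 96.1 CPM on light and 505, 477 and 348 CPM on heavy polysomes (log2 2.32, SE 0.24, edgeR adjusted p = 9.40e-07). Its heavy level was near its input level of 473, 371 and 442 CPM. Laminins and other large matrix proteins had 13 of 22 and integrins, the matrix receptors, 12 of 20 higher on heavy and none on light polysomes (medians 0.94 and 1.09). Itga3, the laminin-binding α3 chain, stood at 646, 820 and 805 CPM on light and 2270, 2552 and 2056 CPM on heavy polysomes. Of 15 genes of MHC class I presentation 12 were higher on heavy and 1 on light polysomes (median 1.35; 2 on light without NSi heavy 3). The 1 on light was Nlrc5, a transcriptional activator of class I genes with 1915 residues (log2 -0.68, edgeR adjusted p = 0.00929). The heavy chain H2-K1 was higher on heavy polysomes by 1.80, while the light chain gene B2m (119 residues; named after its value was seen) was at -0.33 and not called (adjusted p = 0.214).

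Small secreted and calcium-binding proteins were on the light side. Of 10 S100 proteins, small calcium sensors, 9 were higher on light and none on heavy polysomes (median -1.67). S100a6 stood at 8251, 7570 and 8494 CPM on light and 2164, 1929 and 3507 CPM on heavy polysomes (log2 -1.68, edgeR adjusted p = 4.75e-05), and S100a4, a member known for a role in metastasis, was higher on light polysomes by 2.90-fold. Of 17 chemokines and myeloid growth factors 8 were higher on light and 2 on heavy polysomes (median -0.88; 5 on light without NSi heavy 1). Cxcl1, a neutrophil attractant of 96 residues, stood at 620, 449 and 602 CPM on light and 165, 117 and 204 CPM on heavy polysomes (log2 -1.78), and Csf1, the macrophage growth factor of 552 residues, was higher on heavy polysomes by 0.75.

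Cytoskeletal genes covered the whole range. Of 30 giant cytoskeletal proteins 14 were higher on heavy and none on light polysomes (median 0.70; 19 and 2 with the replicate block, and 9 and none with total-count scaling), with Tln1, which links integrins to actin, higher by 1.85. Among actin, tubulin and small cytoskeletal genes 15 of 33 were higher on heavy and 9 on light polysomes, and 8 of these 9 have under 200 residues. Tubb4b, a β-tubulin, was higher on heavy polysomes by 2.04. Of 29 epithelial markers 22 were higher on heavy and none on light polysomes (median 1.01), with the keratin Krt7 at 1053, 1034 and 1066 CPM on light and 4211, 2786 and 2754 CPM on heavy polysomes (log2 1.63, edgeR adjusted p = 1.93e-06). Mesenchymal markers had 5 of 17 in each direction (3 on light without NSi heavy 1), with a median of 0.02 that turned to -0.21 with upper quartile scaling. Small GTPases of the Ras and Rab families, nearly all of similar size, lay near the median of all genes, with 19 of 86 higher on heavy and 21 on light polysomes (median -0.02); the first count was 9 without NSi light 3, 11 without NSi heavy 3 and 6 with total-count scaling. The 33 GTPases of 100 to under 200 residues had a median of -0.19, with 6 (18.2%) higher on heavy and 11 (33.3%) on light polysomes. All 1405 genes of that length had a median of -0.93, with 35 (2.49%) and 840 (59.8%). Nras (189 residues) was higher on light polysomes by 2.19-fold. Solute carriers had 56 of 202 higher on heavy and 33 on light polysomes (median 0.28), which is 27.7% and 16.3% beside 27.0% and 25.6% of all genes; with total-count scaling the counts were 40 and 43.

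**Figure D5:**
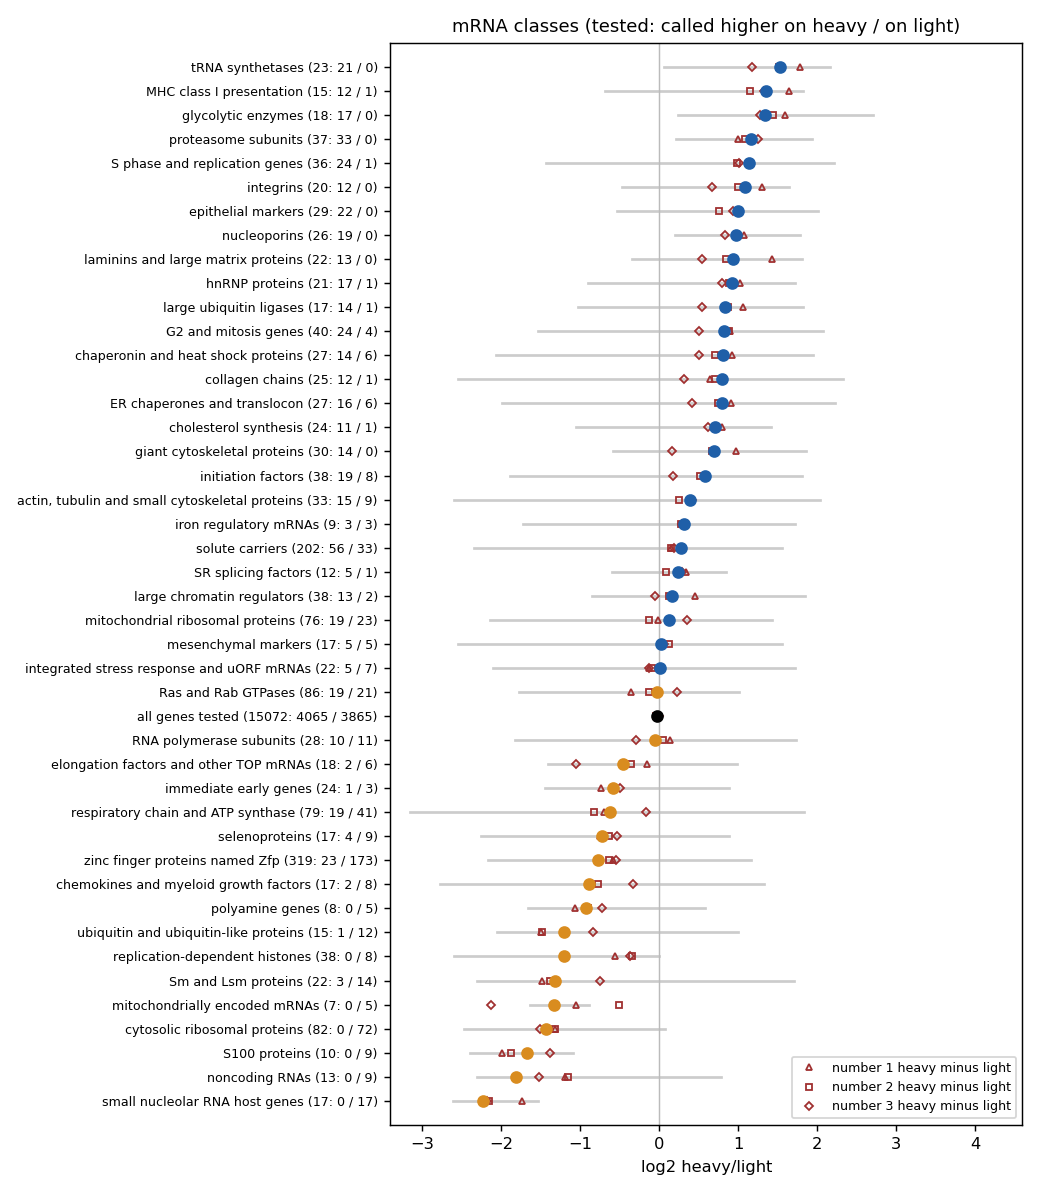
Median log2 heavy/light of 43 classes and of all genes tested (large points; blue above 0, orange below, black for all genes), with the lowest and highest member (grey lines) and the median of each same-numbered pair of libraries (red). Numbers give genes tested and called higher on heavy and on light polysomes; small nucleolar RNA host genes lie lowest at -2.23 and tRNA synthetases highest at 1.53.

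Immediate early genes had few calls without the replicate block. Their same-numbered pairs had medians of -0.74, -0.59 and -0.49, all on the light side. The list median ran from -1.16 without NSi heavy 3 to -0.15 without NSi light 3. Of 24, 3 were higher on light (Jund, Klf4 and Klf6) and 1 (Fosl2) on heavy polysomes, with a median of -0.58. With the replicate block 17 were higher on light and 2 on heavy polysomes, and without NSi heavy 3 the counts were 5 and 1. Jund, a transcription factor of the AP-1 family, stood at 1023, 987 and 1718 CPM on light and 454, 440 and 788 CPM on heavy polysomes (log2 -1.15, SE 0.30, edgeR adjusted p = 0.00402).

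Cells with the hairpin against Dap5 gave no gene whose distribution between heavy and light polysomes was called different from that in control cells. In the test of the difference itself, edgeR called 0 of 15072 genes (0%), with 181 at an unadjusted p under 0.05. DESeq2 also called 0, with 223 at an unadjusted p under 0.05. With replicate number as a block within each arm (12 polysome libraries), edgeR called 0 of 14251 genes, with 384 at an unadjusted p under 0.05. These counts lie below the share of 0.05 that a test without any difference gives, so the test was conservative. The absence of calls does not show that the arms are alike. The class medians of the knockdown cells, from libraries of their own, were -1.33 for proteins under 100 residues and 0.49 for those of 1600 or more, beside -1.70 and 0.50 in control cells. List medians in knockdown and control cells were -1.39 and -1.43 for ribosomal proteins, but 0.71 and -1.21 for replication-dependent histones, the list whose medians lay farthest apart, and -0.62 and -1.33 for mitochondrially encoded mRNAs. No member of these 3 lists was called different between the arms. Of the 38 histones tested, only 21 had enough counts when the control polysome libraries were taken alone. The control median of -1.21 thus includes genes with few counts on control polysomes. With 0.5 CPM added to each level, the same-numbered control pairs gave histone medians of -0.56, -0.35 and -0.37. Whether low counts set the gap between the arms for histones was not tested.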

How the data were processed

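The raw counts per gene symbol were deposited by the authors for all 18 libraries. Reads came from stranded poly(A) libraries, per the labels' protocols. The submitters' processing notes name mouse build mm9 and the aligner Bowtie (version not given). The counting tool, the gene annotation used by the authors, and the treatment of reads shared by near-identical genes were not given in the sources used here. Of the symbols, 27 appear as dates (23 tested, 4 sharing a name) and belong to no list.

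Groups were taken from the titles. Genes were kept with edgeR's filterByExpr (minimum count 10, minimum total count 15), scaled by TMM and tested by edgeR 4.0.16 quasi-likelihood in R 4.3.3 with limma 3.58.1, in 1 fit over the 6 groups with 12 residual degrees of freedom. Heavy against light polysomes of control cells, and its difference from the knockdown arm, were contrasts of that fit, with Benjamini-Hochberg adjustment over 15072 genes and a threshold of 0.05. In simulated data for heavy against light polysomes, the fit called 4 of 50 genes changed 1.5-fold, 27 of 50 changed 2-fold and 50 of 50 changed 4-fold. It also called 8 unchanged genes. Changes of 2-fold or less were thus often not called in that setting. It held 50 changed genes per fold among 14613, while 52.6% of genes were called in the data. With so few changed genes the adjusted threshold is stricter, so these recoveries do not give the share missed in the data. Of the 7930 calls in the data 4444 had at least a 2-fold difference, and the rest had less. Alternatives were RLE, total-count and upper quartile scaling, no filter, DESeq2 1.42.0, a test above 1.5-fold, fewer libraries, replicate blocks and leaving out each library. Light and heavy libraries of the same number went together, although the labels do not state a pairing. Over 9623 genes, deviations from the group means correlated at 0.509, 0.727 and 0.563 for equal numbers and at most at -0.126 otherwise. Deviations from a mean of 3 libraries cancel out, so the negative values follow in part from the positive ones. Input libraries did not go together with light or heavy ones by number.

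Named genes were the target, the 12 largest called differences in each direction (mean of at least 5 CPM, no overlap), up to 5 members per list with the smallest p-values, and the 3 shortest and 3 longest proteins above 100 CPM. Members and lists were chosen with earlier results of these data known. Protein lengths came from GENCODE M21 (GRCm38) coding regions, matched by symbol for 85.4% of tested genes, in place of the RefSeq protein table first planned. Start windows came from RefSeq (GRCm38.p6). No coordinate was converted between builds. Some single genes are not reported here.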

Additional observations from a re-analysis of the deposited data

How the results depend on the processing

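No called gene was called in the opposite direction under any alternative. Calls numbered 7930 at first, 6768 to 8089 with 1 library left out, and 9154, 9580 and 8886 with the replicate block (6 control polysome, 12 polysome and all 18 libraries). A test for changes above 1.5-fold left 4241 genes (2006 higher on heavy, 2235 on light polysomes), as its construction requires larger changes. With total-count scaling the class medians by length were -0.16 at 200 to under 400 residues (0.06 with TMM), 0.070 at 400 to under 800 and 0.23 at 800 to under 1600; all genes moved by -0.22. The SR splicing factors' median was -0.0085 with upper quartile scaling. Of 250 named genes 237 were called, 214 of them under every alternative, and 23 lost the call under at least 1; of 13 not called, 6 gained it under at least 1. Of 43 lists, 35 had their number of calls within 1.5 times of the first under all alternatives other than the 1.5-fold test. The replicate block moved the number of calls by more in immediate early genes, histones and cholesterol synthesis. Depth was 30385863 to 45424291 counts, so rare genes below the count minimum were not tested.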
